A study of Mus musculus with 6 samples.

Results

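Heat shock proteins and chaperones of the endoplasmic reticulum (ER) were examined in 2 subsets of liver macrophages, and their transcript levels could not be told apart between the subsets at this number of libraries. The members were all genes of the deposited table whose symbol belonged to the Hsp or Dnaj families or to the protein disulfide isomerases numbered Pdia, together with Calr, Canx, Xbp1, Atf4, Atf6, Ddit3, Herpud1, Sdf2l1, Manf and Creld2. Symbols marked as pseudogenes by -ps were left out, which took 83 matching symbols to 79 members of 16503 genes in all. The study sorted Tim4-negative CD11b+ Ly6Clo F4/80+ macrophages derived from monocytes from the livers of wild type C57BL/6J male mice, 6 to 12 weeks old at the start of the diet. All mice had been fed CDA-HFD, a choline-deficient high-fat diet that induces metabolic dysfunction-associated steatohepatitis (MASH), for 7 weeks. CD11chiMinclehi macrophages (n = 3 libraries) were compared with CD11cloMinclelo macrophages (n = 3 libraries), the subsets that the study set beside lipid-associated macrophages (hLAMs) and monocyte-derived Kupffer cells (moKCs). The livers had been digested with warm collagenase before the sort, and no library from a healthy liver was used here. The titles call the libraries biological replicates, but no source used here ties a number to one mouse across the subsets, and p-values cover the spread among 6 libraries.

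Molecular chaperones bind unfolded stretches of other proteins and release them in cycles driven by ATP. Hsp70 proteins do this together with J-domain proteins (Dnaj), which bring clients and trigger ATP hydrolysis, and with nucleotide exchange factors, which reset the cycle. When unfolded protein accumulates in the cytosol, the factor HSF1 raises transcription of Hspa1a, Hspa1b, Dnajb1 and other heat shock genes. When it accumulates in the ER, the sensors IRE1, PERK and ATF6 start the unfolded protein response, whose transcription factors raise ER chaperones, disulfide isomerases and degradation genes. Macrophages loaded with lipid are known to engage this response, and macrophages secrete and display many proteins that fold in the ER.

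Values are in TPM, the share of a gene among all transcripts of a library after correction for gene length, and libraries are listed in the order of replicates 1, 2 and 3. Differences are on the log2(TPM + 1) scale, CD11chiMinclehi minus CD11cloMinclelo, and were called at a Benjamini-Hochberg adjusted p under 0.05 in a limma fit over all 16503 genes. TPM keeps no depth, but the spacing of low values gave an estimate of 7.01 M to 8.14 M reads (M, mega) in a library. The sorted cells carried macrophage transcripts in every library, with 8 of 8 macrophage markers above 0 throughout and a sum of 3774 to 3876 TPM in CD11chiMinclehi macrophages and 3705 to 4145 TPM in CD11cloMinclelo macrophages. The libraries were not equally free of other cells. The 9 T and NK cell markers summed to 29.2, 336 and 119 TPM in CD11chiMinclehi macrophages, against 19.6, 519 and 170 TPM in CD11cloMinclelo macrophages, so that both replicate 2 libraries carried the most. The gate shown for these cells leaves out T, B and NK cells, eosinophils, neutrophils and Tim4+ cells. In bulk samples a different number of cells of a type and a different amount of RNA per cell cannot be told apart.

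The chaperone genes were abundant and close in level between the subsets. Together the 79 members held 9859, 10645 and 10061 TPM in CD11chiMinclehi macrophages, against 9784, 10454 and 10079 TPM in CD11cloMinclelo macrophages, between 0.981% and 1.07% of all TPM. No member was called in either direction by limma, where 0.77% of all genes were called higher and 0.454% were called lower in CD11chiMinclehi macrophages. The lowest adjusted p of any member was 0.314, for Hspb2. At an unadjusted p under 0.05 the count was 1 of 79 members (1.27%), beside 12.9% of all genes. With the replicate number as a block in the fit, 0 members were called again, while 1.67% of all genes were called higher and 1.75% lower, and the lowest adjusted p was 0.0675, for Herpud1. In that fit 9 of 79 members (11.4%) had an unadjusted p under 0.05, beside 16.6% of all genes.

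The median difference of the members was 0.011 on the log2 scale, beside -0.010 over all genes, and 43 of 79 members lay above 0. The 71 members with a mean of at least 10 TPM had differences from -0.418 to 0.687 with a median of 0.012, and 8 members had a lower mean. The levels of both groups overlapped for most members. In 4 members every CD11chiMinclehi library was above every CD11cloMinclelo library, which was so for 9.25% of all genes, and in 4 members every one was below, which was so for 9.22% of all genes. The 4 higher ones were Hspa14, Hspbp1, Dnajc15 and Hspa9 and the 4 lower ones Dnajb5, Hspb2, Dnajc7 and Dnajc27, and these 8 are named because of their values. A p above the threshold does not show that the subsets are alike, so the 95% intervals set how large a difference these TPM values still allow. PCR duplicates had been removed before counting, and the highest value of any gene was 1184 to 1382 TPM in a library. Whether this removal drew the differences of abundant genes towards 0 was not tested. For 23 of 79 members (29.1%, beside 9.4% of all genes) the whole interval lay within 0.25 of 0 on the log2 scale, a fold of at most 1.19 either way. For 50 members (63.3%, beside 32.6% of all genes) it lay within 0.5, and for 66 members (83.5%, beside 56.1% of all genes) within 1. With the replicate block these counts were 28 (35.4%, beside 11.2% of all genes), 52 (65.8%, beside 35.2%) and 69 (87.3%, beside 58.6%). These shares are not matched for level, since the median of the mean levels was 89.4 TPM for members and 22.7 TPM for all genes. Differences of all genes spread less at high levels, with an SD of 0.403 between 20 and 50 TPM and 0.137 above 400 TPM. The shares therefore do not show that chaperones are more alike than other genes of their level. Set side by side as pairs of the same number, 13 members (16.5%, beside 18.0% of all genes) were higher and 13 (16.5%, beside 19.2%) lower in CD11chiMinclehi macrophages in each of 3 pairs. Printed intervals are those of the fit without the block unless the block is named.

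**Figure D1:**
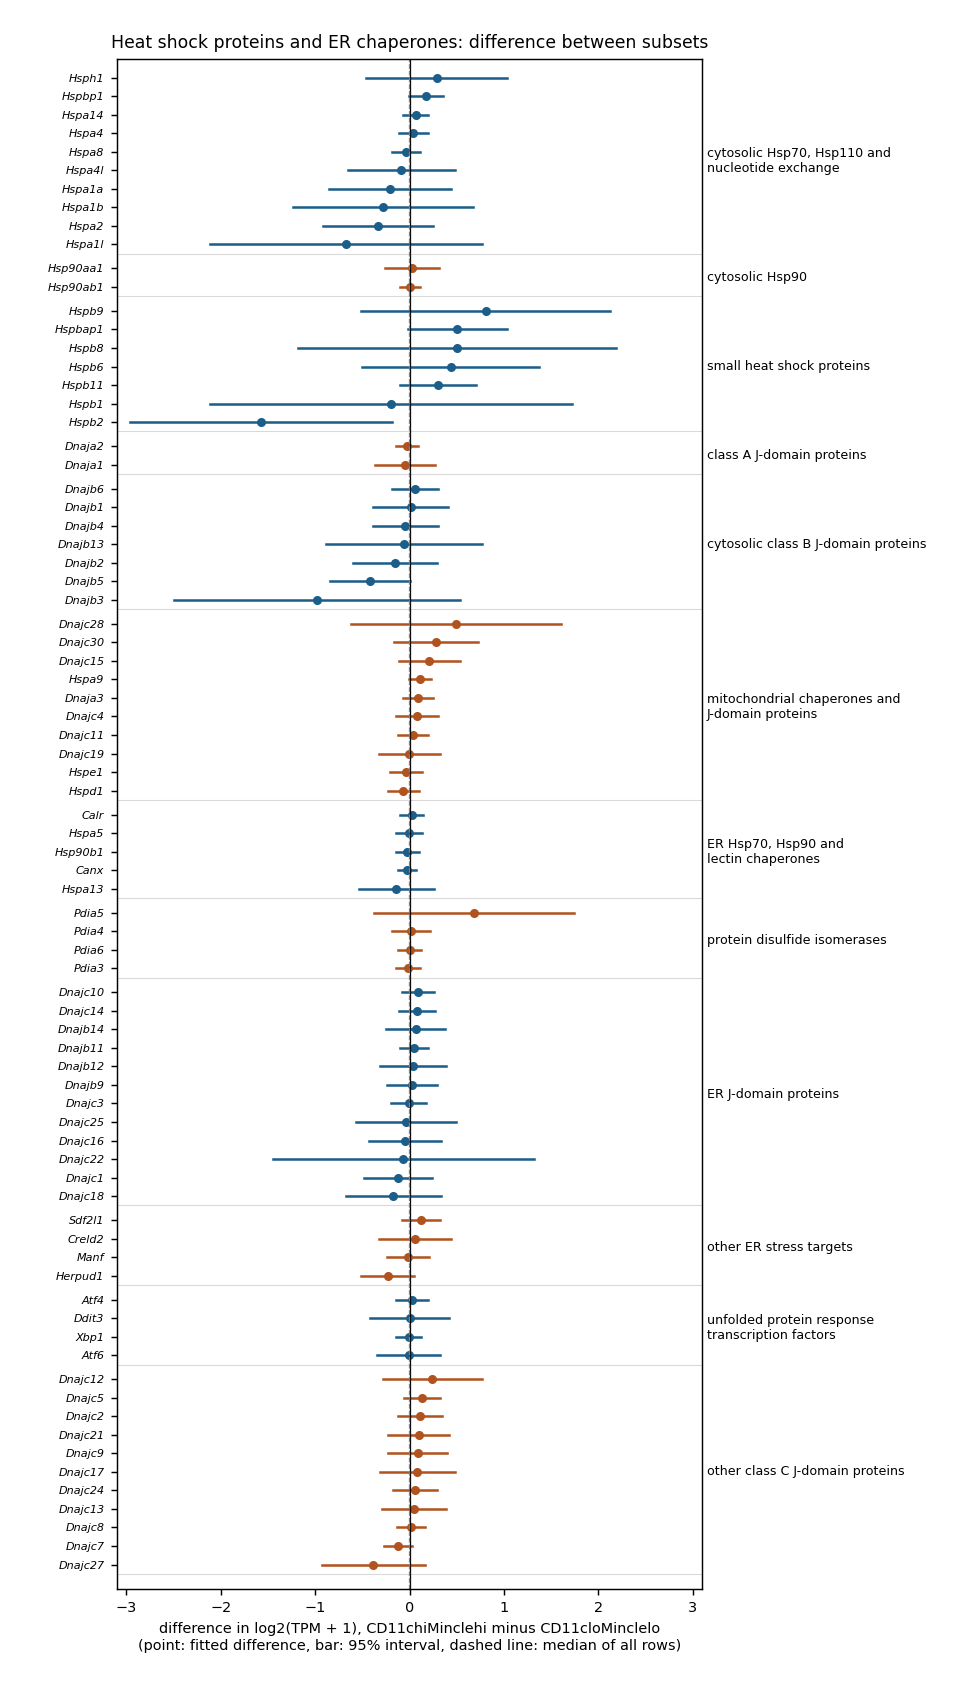
Difference in log2(TPM + 1) between CD11chiMinclehi and CD11cloMinclelo macrophages for the members that belong to a role list, grouped by role, with its 95% interval from the limma fit (n = 3 libraries each). Most points lie close to 0, and the widest intervals belong to members of low level such as Hspb2, Hspb1 and Hspb8.

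**Figure D2:**
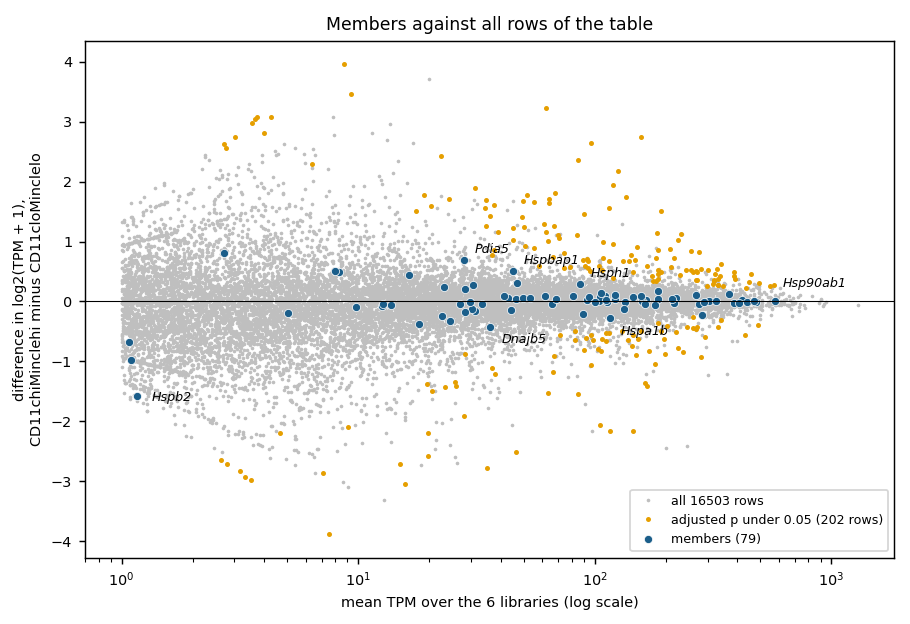
Difference in log2(TPM + 1), CD11chiMinclehi minus CD11cloMinclelo, against the mean TPM over 6 libraries (log scale) for all 16503 genes in grey, the 202 called genes in orange and the 79 members in blue. The abundant members such as Hsp90ab1 sit on the 0 line, and no member is among the called genes.

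The core chaperones of the ER lumen were among the most abundant members and had small differences. Hspa5, which encodes BiP, the main Hsp70 of the ER, had 466, 521 and 445 TPM in CD11chiMinclehi macrophages, against 490.4, 475 and 470.3 TPM in CD11cloMinclelo macrophages. Its difference was -0.0076 (95% interval -0.15 to 0.13), an interval that allows a fold between 0.903 and 1.1 (limma, adjusted p = 0.984). Hsp90b1, the ER Hsp90 that folds Toll-like receptors and integrins, had 379, 408 and 419 TPM in the CD11chiMinclehi libraries, against 398, 401 and 428 TPM in the CD11cloMinclelo libraries. The 2 groups overlapped in both genes. Calr and Canx encode calreticulin and calnexin, the lectin chaperones that hold glycoproteins until they are folded. Calr had 399.6, 444 and 419 TPM in CD11chiMinclehi macrophages, against 410.2, 399 and 432 TPM in CD11cloMinclelo macrophages, a difference of 0.024 (95% interval -0.099 to 0.15). Canx had 386, 375 and 396 TPM in the CD11chiMinclehi libraries, against 396, 380.2 and 403 TPM in the CD11cloMinclelo libraries, a difference of -0.026 (95% interval -0.13 to 0.074). Hspa13, a less abundant Hsp70-like protein of the same compartment, had 43.5, 35.4 and 47.7 TPM in CD11chiMinclehi macrophages, against 39.6, 55.7 and 44.8 TPM in CD11cloMinclelo macrophages, with the highest value in the CD11cloMinclelo replicate 2 library. Of these 5 members the farthest interval bound from 0 was 0.537 on the log2 scale, and it belonged to Hspa13.

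Many of these genes carry the ER stress element, the promoter sequence through which ATF6 and XBP1 are known to act. It was searched as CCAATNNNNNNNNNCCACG on both strands in RefSeq promoters (GRCm38.p6) that run from 250 bases before to 50 bases after a start site. A promoter was found for 63 of 79 members, and 7 of these genes (11.1%) held the element, beside 0.137% of 27025 gene symbols and 0.119% of 32851 promoters. The members were listed as chaperone and stress genes, so these shares are no test of the list. The 7 genes are shown with the element in capitals and 20 bases on either side, each read in the direction of its gene, since they include the most abundant ER chaperones. The element lies on either strand, which is why some read CGTGG first.
Hspa5, chr2:34772005-34772063, + strand: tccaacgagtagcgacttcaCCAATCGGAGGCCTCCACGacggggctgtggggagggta
Hsp90b1, chr10:86705618-86705676, - strand: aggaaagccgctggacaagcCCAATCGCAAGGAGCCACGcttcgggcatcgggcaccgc
Hsp90b1, chr10:86705513-86705571, - strand: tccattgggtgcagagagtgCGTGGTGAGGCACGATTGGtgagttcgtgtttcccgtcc
Calr, chr8:84847055-84847113, - strand: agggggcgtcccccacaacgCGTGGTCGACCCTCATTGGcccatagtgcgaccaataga
Canx, chr11:50325780-50325838, - strand: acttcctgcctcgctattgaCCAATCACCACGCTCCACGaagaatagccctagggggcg
Pdia6, chr12:17266471-17266529, + strand: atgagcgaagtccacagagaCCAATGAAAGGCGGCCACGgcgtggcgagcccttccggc
Dnajc3, chr14:118937807-118937865, + strand: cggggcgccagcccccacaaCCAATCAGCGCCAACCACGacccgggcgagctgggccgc
Creld2, chr15:88819500-88819558, + strand: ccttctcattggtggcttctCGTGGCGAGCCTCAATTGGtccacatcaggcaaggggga
The mean levels of these 7 genes ran from 134 to 478 TPM, and their differences between the subsets ran from -0.026 to 0.060 with a median of -0.006 on the log2 scale. Hsp90b1 held 2 copies on opposite strands. A match is only a run of letters, and the other members with no match may be bound all the same.

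**Figure D3:**
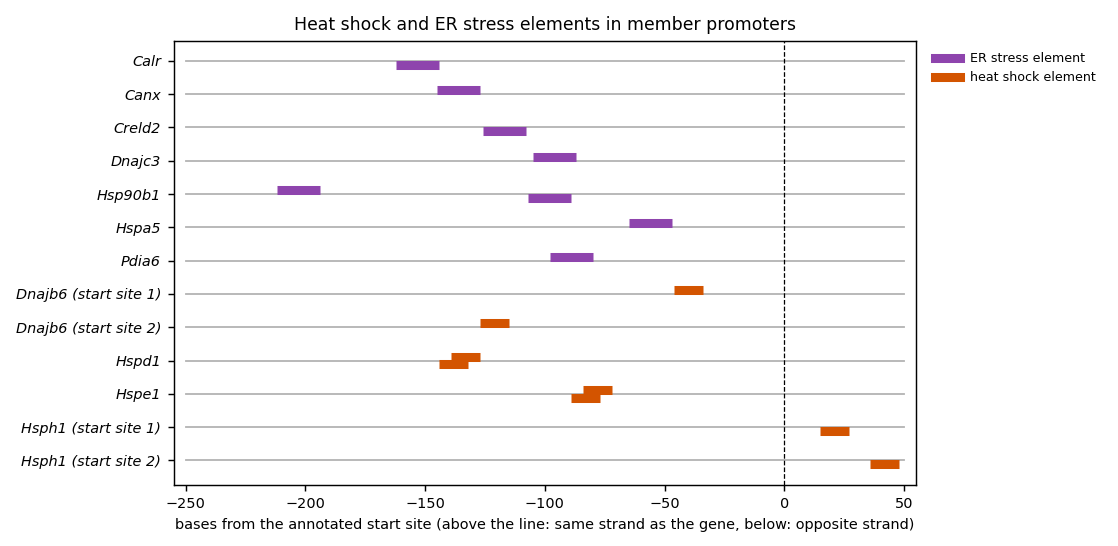
Position of each ER stress element and heat shock element in the promoters of the members that held one, in bases from the annotated start site. The 8 ER stress elements of 7 genes lie between 212 and 47 bases before the start, and the heat shock elements of 4 genes between 144 bases before and 48 bases after it.

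The protein disulfide isomerases form and shuffle disulfide bonds in the ER. The 3 abundant ones did not separate the subsets. Pdia3, the partner of calreticulin and calnexin, had 416, 452 and 444 TPM in CD11chiMinclehi macrophages, against 434, 424 and 469.6 TPM in CD11cloMinclelo macrophages. Pdia4 had 299.6, 345 and 331 TPM in the CD11chiMinclehi libraries, against 285, 331 and 351 TPM in the CD11cloMinclelo libraries, and its lowest value in either group was in replicate 1. Pdia6 had 449.7, 487 and 476 TPM in CD11chiMinclehi macrophages, against 449, 464 and 499 TPM in CD11cloMinclelo macrophages, a difference of 0.0017 (95% interval -0.12 to 0.12). Pdia5 was the exception in spread rather than in call. It had 22.5, 40.5 and 37.3 TPM in the CD11chiMinclehi libraries, against 8.8, 26.9 and 31.7 TPM in the CD11cloMinclelo libraries, with the lowest library of each group again numbered 1. Pdia5 was higher in CD11chiMinclehi macrophages in each of 3 pairs of libraries of the same number, but the values of the groups overlapped, the difference was 0.69 (95% interval -0.37 to 1.74) and the adjusted p was 0.613 in limma, and 0.192 with the replicate block (95% interval 0.15 to 1.22).

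The J-domain proteins of the ER include partners of BiP, but the list used here was not limited to those. The 12 members of the list had a median difference of 0.012, and 6 lay above 0. Dnajb11, which binds unfolded chains in the lumen and is the most abundant of them, had 211, 221 and 212 TPM in CD11chiMinclehi macrophages, against 192, 211 and 221 TPM in CD11cloMinclelo macrophages. Dnajc3, an inhibitor of PERK, had 125, 131 and 146 TPM in the CD11chiMinclehi libraries, against 128, 140.2 and 135 TPM in the CD11cloMinclelo libraries. Dnajb9, which holds IRE1 inactive together with BiP, had 92.4, 92.1 and 94.1 TPM in CD11chiMinclehi macrophages, against 93, 105 and 77.5 TPM in CD11cloMinclelo macrophages, so that its CD11chiMinclehi libraries lay close together inside the range of the CD11cloMinclelo libraries. Dnajc10, a reductase that opens disulfides of proteins bound for degradation, had the largest positive difference of the list among members of at least 10 TPM, 0.094 (95% interval -0.075 to 0.26), with 115, 112 and 117 TPM in the CD11chiMinclehi libraries, against 106, 113 and 102 TPM in the CD11cloMinclelo libraries. The largest negative one was that of Dnajc18, -0.17 (95% interval -0.68 to 0.34), with 30.5, 27.5 and 21.4 TPM in CD11chiMinclehi macrophages, against 25.1, 26.6 and 38.8 TPM in CD11cloMinclelo macrophages. Dnajc22 was the most variable, with 9.72, 17.3 and 7.25 TPM in the CD11chiMinclehi libraries, against 3.77, 21.6 and 16.3 TPM in the CD11cloMinclelo libraries, and an interval of -1.45 to 1.32 that leaves its difference undetermined.

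Among other targets of the unfolded protein response, Herpud1 had the lowest adjusted p of all members once the replicate number was in the fit. It encodes a membrane protein of ER-associated degradation and is a target of ATF6 and ATF4. Herpud1 had 250.3, 311 and 228 TPM in CD11chiMinclehi macrophages, against 301, 342 and 278 TPM in CD11cloMinclelo macrophages. The 2 groups overlapped, because the replicate 2 library was the highest of its group in both, but the CD11chiMinclehi library was lower in each of 3 pairs of the same number. The difference was -0.23 (95% interval -0.51 to 0.051), a fold of 0.853 (95% interval 0.702 to 1.04), with an adjusted p of 0.492 in limma and 0.0675 with the replicate block (95% interval -0.35 to -0.11). When genes with a mean under 5 TPM were also left out of the blocked fit, Herpud1 passed at an adjusted p of 0.0477, among 374 genes called lower of 12074 (3.1%), while 2.75% were called higher and no member was among those. That combination was chosen after the data were seen. Herpud1 was not called with the block alone or in any fit without the block. Other settings combined with the block were not examined for calls between the subsets. Creld2, an ER protein induced by stress, had 196, 288 and 193 TPM in the CD11chiMinclehi libraries, against 198, 249 and 195 TPM in the CD11cloMinclelo libraries. Sdf2l1, which works with Dnajb11, had 355, 401 and 395 TPM in CD11chiMinclehi macrophages, against 309.8, 379 and 375 TPM in CD11cloMinclelo macrophages. Sdf2l1 was higher in CD11chiMinclehi macrophages in each of 3 pairs, with a difference of 0.12 (95% interval -0.082 to 0.32), or an interval of 0.015 to 0.22 and an adjusted p of 0.238 in limma with the replicate block. Manf, a secreted protein that leaves the ER under stress, had 97.1, 108 and 94.9 TPM in the CD11chiMinclehi libraries, against 94.6, 112 and 96.8 TPM in the CD11cloMinclelo libraries. In all 4 genes the highest library of each group was replicate 2.

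The transcription factors of the response were at close levels in both subsets. Xbp1, whose mRNA is spliced by IRE1, had 289.9, 299 and 272 TPM in CD11chiMinclehi macrophages, against 291, 301 and 275 TPM in CD11cloMinclelo macrophages, a difference of -0.0099 (95% interval -0.14 to 0.12). Atf4, which is controlled mainly at translation by PERK, had 166, 174 and 159 TPM in the CD11chiMinclehi libraries, against 152, 176 and 162 TPM in the CD11cloMinclelo libraries, a difference of 0.029 (95% interval -0.14 to 0.20). Atf6, which is activated by cleavage of the protein, had 129, 93.5 and 115 TPM in CD11chiMinclehi macrophages, against 132, 100.2 and 107 TPM in CD11cloMinclelo macrophages, a difference of -0.01 (95% interval -0.34 to 0.32). Ddit3 encodes CHOP, a factor that ATF4 induces and that promotes cell death under lasting stress. Ddit3 had 141, 188 and 142 TPM in the CD11chiMinclehi libraries, against 133, 204 and 139.7 TPM in the CD11cloMinclelo libraries, with both replicate 2 libraries on top, and its fitted difference was 6.3e-05 with an interval of -0.41 to 0.41, or -0.16 to 0.16 with the replicate block. Levels per gene hold neither Xbp1 splicing nor Atf4 translation nor Atf6 cleavage, so the activity of the 3 sensors was not measured here.

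In the cytosol, the abundant constitutive chaperones varied little between libraries. Hsp90ab1, the constitutive Hsp90, was the most abundant of all members (GRCm38 chr17:45567775-45573271). Hsp90ab1 had 561, 610.5 and 565 TPM in CD11chiMinclehi macrophages, against 565, 569 and 597 TPM in CD11cloMinclelo macrophages, a difference of 0.0048 (95% interval -0.099 to 0.11), or a fold of 1.003 (95% interval 0.934 to 1.08). Hspa8, the constitutive Hsp70, had 259, 296 and 258 TPM in the CD11chiMinclehi libraries, against 284, 272 and 276 TPM in the CD11cloMinclelo libraries, a difference of -0.037 (95% interval -0.19 to 0.11). Hsp90aa1, the inducible Hsp90, had 99.9, 127 and 111 TPM in CD11chiMinclehi macrophages, against 99.6, 127 and 106 TPM in CD11cloMinclelo macrophages. Its replicates lined up across the groups, with replicate 1 lowest and replicate 2 highest in each, and the difference was 0.025 (95% interval -0.26 to 0.31). Hspbp1, an exchange factor that also limits Hsp70 activity, had 199.7, 188 and 199 TPM in the CD11chiMinclehi libraries, against 157, 177 and 187 TPM in the CD11cloMinclelo libraries. Every CD11chiMinclehi library of Hspbp1 was above every CD11cloMinclelo one, with a difference of 0.18 (95% interval -0.00068 to 0.35). Its adjusted p was 0.388 in limma, or 0.28 with the replicate block (95% interval 0.0072 to 0.34). Hspa14, which belongs to the ribosome-associated complex together with Dnajc2, had 149.99, 146 and 147 TPM in CD11chiMinclehi macrophages, against 143, 140.5 and 139.5 TPM in CD11cloMinclelo macrophages. The groups of Hspa14 did not overlap either, at a difference of 0.067 (95% interval -0.066 to 0.20) and an adjusted p of 0.724. Hspa2, best known from the testis, had the largest negative difference of the list among members of at least 10 TPM, -0.33 (95% interval -0.91 to 0.25), with 26.3, 20.5 and 17.4 TPM in the CD11chiMinclehi libraries, against 25.7, 36.2 and 20.6 TPM in the CD11cloMinclelo libraries.

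The stress-inducible Hspa1b, Hsph1 and Hspa1a showed the widest spread between libraries of one group among members with a mean over 50 TPM, with a within-group SD of 0.69, 0.53 and 0.46 on the log2 scale in that order. Hspa1a and Hspa1b encode the same inducible Hsp70 and lie next to each other (GRCm38 chr17:34969190-34972156 and chr17:34956436-34959238). Hspa1b had 63.7, 177 and 78.4 TPM in CD11chiMinclehi macrophages, against 98.9, 189 and 85.8 TPM in CD11cloMinclelo macrophages. Hspa1a had 59.1, 121 and 71.9 TPM in the CD11chiMinclehi libraries, against 81.3, 126 and 77.4 TPM in the CD11cloMinclelo libraries. The replicate 2 library was the highest in each group for both genes, by a factor of 2.78 between the highest and lowest CD11chiMinclehi library and 2.2 between the CD11cloMinclelo libraries for Hspa1b. Of the stretches of their transcripts as long as a read, 38.1% in Hspa1a and 40.5% in Hspa1b are identical in the other gene, so the counting could have divided reads between them, and 19.0% of the exon bases of Hspa1a also overlap Gm20481 on the other strand. Their sum depends little on that division, since their exon lengths are close (2967 bases for Hspa1a and 2803 for Hspa1b in the annotation used here). The sources used here do not say whether reads matching both genes were counted at all. The sum was 122.8, 297.9 and 150.3 TPM in CD11chiMinclehi macrophages, against 180.2, 315.1 and 163.2 TPM in CD11cloMinclelo macrophages. Hspa1b was lower in CD11chiMinclehi macrophages in each of 3 pairs, with a difference of -0.28 (95% interval -1.24 to 0.67) and an adjusted p of 0.855 in limma and 0.296 with the replicate block (95% interval -0.56 to -0.0027). Hsph1, the Hsp110 that resets Hsp70 after heat, went the other way. Hsph1 had 75.6, 133 and 74.7 TPM in CD11chiMinclehi macrophages, against 56.8, 119 and 60.3 TPM in CD11cloMinclelo macrophages. It was higher in CD11chiMinclehi macrophages in each of 3 pairs, with a difference of 0.29 (95% interval -0.46 to 1.03) and an adjusted p of 0.799, or 0.171 with the replicate block (95% interval 0.075 to 0.50). Dnajb1, the main J-domain partner of inducible Hsp70, had 96.6, 113 and 103 TPM in the CD11chiMinclehi libraries, against 90.8, 138 and 87.2 TPM in the CD11cloMinclelo libraries, also with replicate 2 highest in each group.

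**Figure D4:**
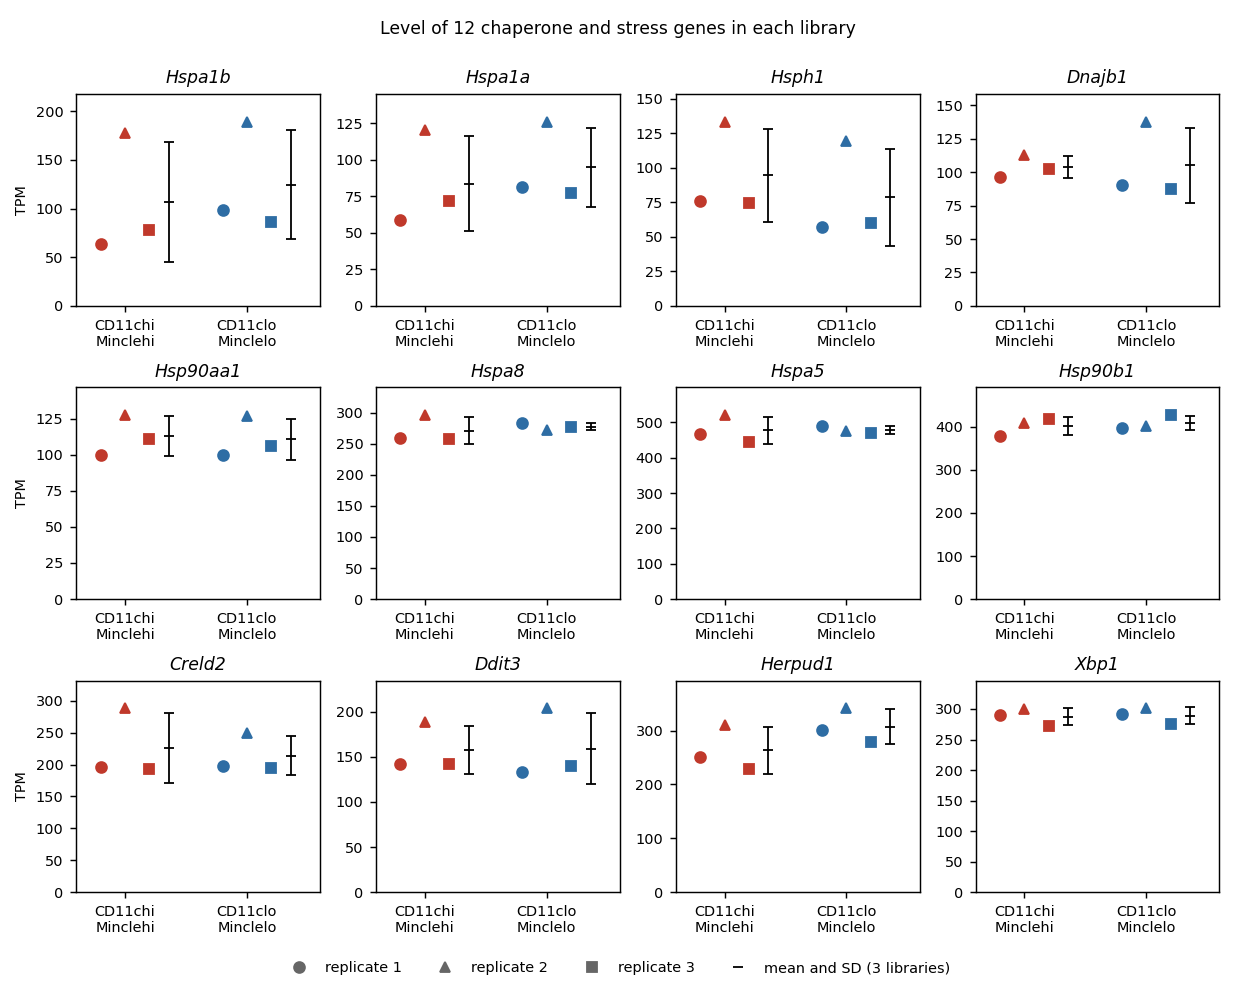
TPM of 12 members in each of 3 CD11chiMinclehi (red) and 3 CD11cloMinclelo (blue) libraries, with the replicate number as the marker shape and mean ± SD beside them. For Hspa1b, Hspa1a, Hsph1, Creld2, Ddit3 and Herpud1 the triangles of replicate 2 are the highest of their group, and for Hspa8, Hspa5 and Hsp90b1 the libraries lie close together.

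Several of these genes varied with the replicate number. In 22 of 79 members (27.8%) the replicate 2 library was the highest of both groups, beside 14.4% of all genes. Replicate 1 was the highest in both groups in 8 members (10.1%), beside 14.2% of all genes, and replicate 3 in 8 members, beside 11.7%. The 22 members included heat shock genes (Hspa1a, Hspa1b, Hspa1l, Hsph1, Dnaja1, Dnajb1, Dnajb2, Hsp90aa1, Hspe1) as well as ER stress genes (Xbp1, Atf4, Ddit3, Herpud1, Creld2, Sdf2l1, Manf). This pattern was seen first and then tested with limma, by an F test of the replicate number in the fit that also holds the subset. The test called 0.933% of all genes, among them 2 members, Hsph1 at an adjusted p of 0.023 and Hspa1b at 0.024. Next came Hspa1a at 0.0627, Ddit3 at 0.0656, Creld2 at 0.0753 and Herpud1 at 0.0975. Neither of the 2 calls was kept without the variance trend. Neither was kept when any single library was left out, but such a fit has too few libraries to decide whether the calls hold. Among the genes with a mean of at least 5 TPM 4 of 75 members passed (Hsph1, Hspa1b, Hspa1a and Ddit3), beside 206 of 12074 genes (1.71%). Of the 4546 genes between 50 and 200 TPM, 1.21% had a larger within-group SD than Hspa1b. Without both replicate 2 libraries, 0 members were called between the subsets, and the median difference of the members was 0.034.

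The heat shock element, the repeat of GAA units that HSF1 binds, was searched as GAANNTTCNNGAA and as TTCNNGAANNTTC, its reverse. Of 63 members with a promoter 4 held it (6.35%), beside 0.662% of gene symbols and 0.603% of promoters, which again is no test of a list of chaperone and stress genes. Stretches of Dnajb6 and of Hspd1 and Hspe1, the Hsp60 and Hsp10 genes, which share a promoter, are shown with an element in capitals. For Hsph1, one of the 2 genes called by replicate number, only the match is given, below them.
Hspd1, chr1:55088044-55088096, - strand: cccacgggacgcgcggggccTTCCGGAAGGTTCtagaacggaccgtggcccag
Hspe1, chr1:55088039-55088091, + strand: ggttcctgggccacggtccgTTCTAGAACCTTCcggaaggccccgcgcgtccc
Dnajb6, chr5:29735832-29735884, + strand: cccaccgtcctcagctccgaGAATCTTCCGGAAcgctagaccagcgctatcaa
In Hsph1 the match, TTCTGGAAAGTTC, lay 15 to 27 bases after one annotated start site and 36 to 48 bases after the other. Hspd1 and Hspe1 are transcribed away from each other, and both hold the same 2 overlapping matches, 1 on each strand. The lines of Hspd1 and Hspe1 each mark only 1 of these matches, and not the same one. Dnajb6 has 2 annotated start sites that share a single match. The promoters of Hspa1a, Hspa1b and Dnajb1 held no match in these windows, which says only that these letters are not there. Of the 4 genes with the element, Hspe1 and Hsph1 were highest in replicate 2 in both groups.

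Markers of other cells moved with the replicate number too. T and NK cell markers were highest in replicate 2 in both groups for 6 of 9 genes, and Nkg7, a gene of cytotoxic cells, had 4.93, 133 and 52.7 TPM in CD11chiMinclehi macrophages, against 4.69, 209 and 61.2 TPM in CD11cloMinclelo macrophages. In 7 of the 9 genes replicate 1 was the lowest library of each group, the exceptions being Cd4 and Klrb1c, and in replicate 1 Cd3d and Cd3g were listed at 0 in the CD11chiMinclehi library and Cd3e, Cd3g, Trac and Ncr1 in the CD11cloMinclelo library. Conventional dendritic cell markers (7 of 7 measured) summed to 81.8, 193 and 202 TPM in CD11chiMinclehi macrophages, against 63.7, 266 and 160.4 TPM in CD11cloMinclelo macrophages. Plasma cell markers (5 of 7 measured) summed to 112, 433 and 365 TPM in CD11chiMinclehi macrophages, against 108, 404 and 351 TPM in CD11cloMinclelo macrophages. Neutrophil markers (6 of 7 measured) summed to 54.7, 241 and 279 TPM in CD11chiMinclehi macrophages, against 38.2, 387 and 317 TPM in CD11cloMinclelo macrophages. In these 3 lists replicates 2 and 3 stood above replicate 1 in both groups. Hepatocyte markers (9 of 9 measured) summed to 1918, 3069 and 2130 TPM in CD11chiMinclehi macrophages, against 2196, 2607 and 2880 TPM in CD11cloMinclelo macrophages. Endothelial markers summed to 59.7 to 116 TPM in CD11chiMinclehi macrophages and 65.3 to 199 TPM in CD11cloMinclelo macrophages, and stellate and fibroblast markers to 107 to 144 TPM in CD11chiMinclehi macrophages and 158 to 245 TPM in CD11cloMinclelo macrophages. B cell markers summed to 111 to 159 TPM in CD11chiMinclehi macrophages and 182 to 222 TPM in CD11cloMinclelo macrophages, and plasmacytoid dendritic cell markers to 308 to 396 TPM in CD11chiMinclehi macrophages and 409 to 529 TPM in CD11cloMinclelo macrophages. Single genes held most of these sums. Cd79b had 89.9 to 149 TPM in CD11chiMinclehi macrophages and 143 to 182 TPM in CD11cloMinclelo macrophages. Bst2 had 278 to 312 TPM in CD11chiMinclehi macrophages and 352 to 400 TPM in CD11cloMinclelo macrophages. In the CD11cloMinclelo replicate 1 library Bst2 had 375 TPM, while Siglech and Ccr9 were listed at 0. Immediate early genes, which rise when tissue is digested, went the other way, with 5759, 5393 and 5807 TPM in CD11chiMinclehi macrophages, against 6241, 5248 and 6136 TPM in CD11cloMinclelo macrophages. In none of these 14 immediate early genes was replicate 2 the highest of both groups, and in 9 it was replicate 1. The part of other cells and of tissue handling in the replicate pattern of the chaperones was not tested.

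**Figure D5:**
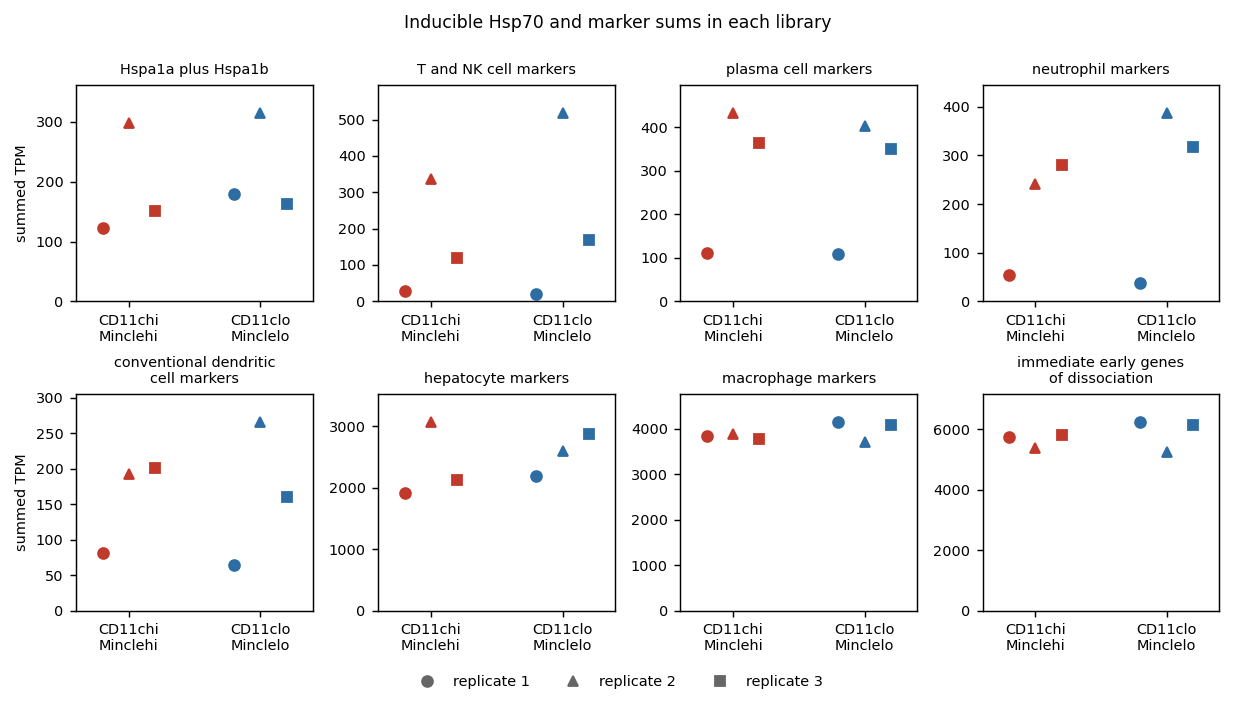
Summed TPM of Hspa1a plus Hspa1b, of 6 marker lists and of the immediate early genes of dissociation in each library, CD11chiMinclehi in red and CD11cloMinclelo in blue, with the replicate number as the marker shape. T and NK cell markers and the Hsp70 sum are highest in replicate 2 of both groups, and the immediate early genes are lowest there.

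The small heat shock proteins, which hold unfolded proteins without ATP, were scarce. Hspb1, the best known of them, had 1.05, 4.48 and 7.33 TPM in CD11chiMinclehi macrophages, against 0.572, 8.95 and 8.04 TPM in CD11cloMinclelo macrophages, so that its level was low in both replicate 1 libraries. Its difference was undetermined at -0.20 (95% interval -2.12 to 1.72, or -1.19 to 0.80 with the replicate block). Hspb2 was listed at 0 in every CD11chiMinclehi library and had 4.24, 0.614 and 2.13 TPM in the CD11cloMinclelo libraries. It had the lowest p of all members, but the adjusted p of limma was 0.314, its mean corresponds to 1.67 estimated reads per library, and 30.2% of its exon bases overlap Cryab on the other strand. Reads of the overlapping genes can be told apart only if the counting used strand, which the sources used here do not give. Hspb11, which by function is a subunit of intraflagellar transport, was the most abundant of the list, with 47.5, 48.7 and 58.2 TPM in the CD11chiMinclehi libraries, against 43.3, 32.8 and 50 TPM in the CD11cloMinclelo libraries. Hspb6, also known as Hsp20, had 20.7, 17.4 and 16.6 TPM in CD11chiMinclehi macrophages, against 15.6, 6.39 and 22.2 TPM in CD11cloMinclelo macrophages, with both extremes among the CD11cloMinclelo libraries. Hspbap1, which binds Hspb1, had 48.1, 62.3 and 47.9 TPM in the CD11chiMinclehi libraries, against 37.8, 48.8 and 26.4 TPM in the CD11cloMinclelo libraries. It was higher in CD11chiMinclehi macrophages in each of 3 pairs, with a difference of 0.51 (95% interval -0.015 to 1.03) and an adjusted p of 0.402, or 0.139 with the replicate block (95% interval 0.16 to 0.85).

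Among J-domain proteins of the cytosol, Dnaja2, a class A partner of Hsp70, averaged 214 ± 2.22 TPM in CD11chiMinclehi macrophages and 218 ± 5.33 TPM in CD11cloMinclelo macrophages (SD, n = 3 each). Dnaja1, the other class A member, averaged 64.5 ± 8.71 TPM in CD11chiMinclehi macrophages and 66.7 ± 8.84 TPM in CD11cloMinclelo macrophages, with replicate 2 highest in both groups. Dnajb6, which keeps aggregation-prone proteins soluble, had 52.5, 51.4 and 48.8 TPM in CD11chiMinclehi macrophages, against 49.3, 51.3 and 45.8 TPM in CD11cloMinclelo macrophages. Dnajb5 had 34.8, 33.7 and 24.5 TPM in the CD11chiMinclehi libraries, against 45.6, 43.8 and 35 TPM in the CD11cloMinclelo libraries. Every CD11chiMinclehi library of Dnajb5 was below every CD11cloMinclelo one, with a difference of -0.42 (95% interval -0.84 to 0.0055) and an adjusted p of 0.392 in limma, or 0.172 with the replicate block (95% interval -0.73 to -0.11). Among the other class C proteins, whose J-domain serves varied tasks, Dnajc8, a splicing protein, was the most abundant, with 324, 282 and 306 TPM in CD11chiMinclehi macrophages, against 316, 288 and 299 TPM in CD11cloMinclelo macrophages. Dnajc7, a co-chaperone that passes clients between Hsp70 and Hsp90, had 127, 130.5 and 125 TPM in the CD11chiMinclehi libraries, against 135, 142 and 139.7 TPM in the CD11cloMinclelo libraries. Its groups did not overlap, at a difference of -0.12 (95% interval -0.27 to 0.023) and an adjusted p of 0.48. Dnajc27 had 18, 11.8 and 16.9 TPM in CD11chiMinclehi macrophages, against 18.5, 18.5 and 24.3 TPM in CD11cloMinclelo macrophages, a difference of -0.38 (95% interval -0.92 to 0.16), also without overlap, and Dnajc12 had the largest positive difference of this list, 0.24 (95% interval -0.29 to 0.76), with 23.3, 20.6 and 30.9 TPM in the CD11chiMinclehi libraries, against 16.4, 22 and 24.5 TPM in the CD11cloMinclelo libraries.

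Mitochondrial chaperones import and fold the proteins of the matrix. Of 10 members 7 lay above 0, with a median difference of 0.084. Hspa9, the mitochondrial Hsp70 that pulls proteins through the import channel, had 284, 276 and 275 TPM in CD11chiMinclehi macrophages, against 263, 246 and 264 TPM in CD11cloMinclelo macrophages. Its groups did not overlap, with a difference of 0.11 (95% interval -0.0037 to 0.22), a fold of 1.080 (95% interval 0.997 to 1.17), and an adjusted p of 0.404 in limma, or 0.314 with the replicate block. Hspd1 and Hspe1 encode Hsp60 and Hsp10, which together form the folding chamber. Hspd1 had 175, 164 and 189 TPM in the CD11chiMinclehi libraries, against 184, 191 and 177 TPM in the CD11cloMinclelo libraries, a difference of -0.065 (95% interval -0.23 to 0.096). Hspe1 had 151, 174 and 160.5 TPM in CD11chiMinclehi macrophages, against 163, 175 and 159.9 TPM in CD11cloMinclelo macrophages, a difference of -0.039 (95% interval -0.21 to 0.13). The ends of these 2 genes overlap by 112 bases on opposite strands, 4.24% of the exon bases of Hspd1 and 7.6% of those of Hspe1. Dnajc15, an import protein of the inner membrane, had 30.0, 32.0 and 28.9 TPM in CD11chiMinclehi macrophages, against 26.9, 25.9 and 25.3 TPM in CD11cloMinclelo macrophages, without overlap and at an adjusted p of 0.604. Dnajc28 had the largest positive difference of the list among members of at least 10 TPM in either group, 0.49 at an adjusted p of 0.758, with 3.99, 17.4 and 9.77 TPM in the CD11chiMinclehi libraries, against 5.83, 7.24 and 5.36 TPM in the CD11cloMinclelo libraries. Its highest value was in the CD11chiMinclehi replicate 2 library, and the difference was 0.153 without both replicate 2 libraries.

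Other genes of the same pathways gave no calls between the subsets either. Of 23 HSF factors and co-chaperones, 14 subunits of the TRiC and prefoldin chaperonins, 33 further genes of ER folding and degradation, 15 further genes of the unfolded protein response, 9 further mitochondrial chaperones and proteases and 14 immediate early genes, 0 were called in either direction by limma. Their median differences were -0.041, -0.003, 0.050, 0.023, 0.128 and -0.042 on the log2 scale in that order. The most abundant of each list were Bag1, Cct5, P4hb, Cebpb, Trap1 and Fos. With the replicate block 1 co-chaperone was called, Fkbp5, a glucocorticoid-induced partner of Hsp90, and 1 immediate early gene, Ier2. Fkbp5 had 36.7, 27.7 and 40.3 TPM in CD11chiMinclehi macrophages, against 58.9, 40.7 and 61.2 TPM in CD11cloMinclelo macrophages, a difference of -0.60 with an adjusted p of 0.262, or 0.0473 with the block. Ier2 had 364, 329 and 399 TPM in the CD11chiMinclehi libraries, against 453, 389 and 489 TPM in the CD11cloMinclelo libraries, a difference of -0.28 with an adjusted p of 0.264, or 0.0144 with the block. Hsf1 itself averaged 112 ± 15.4 TPM in CD11chiMinclehi macrophages and 118 ± 14.4 TPM in CD11cloMinclelo macrophages (SD, n = 3 each), with replicate 2 highest in both groups. Between the subsets, 1 of the markers of other cells was called, the fibroblast gene Dcn, which had 71.7, 73.8 and 82.7 TPM in the CD11chiMinclehi libraries, against 112, 128 and 119 TPM in the CD11cloMinclelo libraries (adjusted p = 0.0253). With the block 4 more of these markers were called, each lower in CD11chiMinclehi macrophages. They were the endothelial Cdh5 (0.0126), the fibroblast gene Col3a1 (0.0358), and Bst2 (0.0348) and Cox6a2 (0.0429) of the plasmacytoid dendritic cell list, each with its adjusted p from limma in parentheses. Cdh5 had 2.72, 5.49 and 9.33 TPM in CD11chiMinclehi macrophages, against 16.1, 19.8 and 41.5 TPM in CD11cloMinclelo macrophages, a difference of -1.97. The macrophage markers Adgre1, which encodes F4/80, and Fcgr1, an Fc receptor, were also called lower with the block, at adjusted p of 0.0421 and 0.0464 and differences of -0.22 and -0.27. The part of these cells in any chaperone value was not tested.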

How the data were processed

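Liver macrophages of 2 sorted subsets were profiled by RNA-seq, with poly(A) selection, a strand-marking kit and paired-end reads. Per the labels and the methods of the study, the authors trimmed reads with Trimmomatic 0.39.0, used HISAT2 2.2.1 for alignment to mm10 and Picard against PCR duplicates, counted with featureCounts 2.0.1 and deposited TPM values. No source used here gives the annotation release or the strand setting of the count. The lowest mean in the table was 1.00 TPM, and genes without a row, such as Hspa12a, Hspb7 and Dnaja4, were not analysed here.

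Values of log2(TPM + 1), which understate the change of low genes, were fitted in limma 3.58.1 (R 4.3.3) by a moderated two-sided test with a variance trend over all 16503 genes and 6 libraries, with Benjamini-Hochberg adjustment. The fit has no replicate term, since the study states no pairing for these libraries. Deviations of libraries with the same number correlated over genes at 0.36, 0.203 and 0.116, and those of different numbers at -0.244 to 0.06. The study used paired t-tests for other measures of these subsets. Possible pairing was therefore allowed for, and values with the replicate block stand beside some of the results. Other members, among them Hspa1a, Creld2 and Atf6, also had narrower intervals with the block, which are not printed. The correlations do not show what libraries of the same number share. The script was tested on simulated data. Alternatives were a pseudocount of 0.1 TPM, a minimum mean of 5 TPM, median-ratio rescaling, no trend, the block and leaving out each library.

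Coordinates and exon lengths came from GENCODE M21 on GRCm38, where 77 of 79 members had a unique symbol. The depth estimate used the spacing of low values, of which 79.9% to 86.8% per library came within 0.05 of whole reads. Genes were named if called, if on a fixed list of well-known members, if highest in level or at either end of the differences in their role list, or if among the 5 widest in spread. Hspa14, Hspbp1, Dnajc15, Dnajc7 and Hspb2 fall outside that rule and were added after their values were seen, because their groups did not overlap. Hspa1l and Dnajb2 also fall outside it and were named because replicate 2 was the highest of both groups. Hspb8 was named only for its wide interval. The members, the lists and the rules were chosen with earlier results of these data known. Promoter sequences are from RefSeq. A member counted among the 79 has its own values not reported here.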

Additional observations from a re-analysis of the deposited data

How the results depend on the processing

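No member was called in either direction under a pseudocount of 0.1 TPM, a minimum mean of 5 TPM, median-ratio rescaling, no variance trend, the replicate block, leaving out any single library, or leaving out both replicate 2 libraries, which was added after the data were seen. The replicate block alone changed no member's call. Among the fits examined for calls between the subsets, the exception was the replicate block together with the minimum of 5 TPM, also added later. There 1 member (Herpud1) was called lower. The median difference of the members ran from 0.011 to 0.014 under the other scalings and models and from -0.005 to 0.033 when single libraries were left out. The number of members called by replicate number, 2 in the reported fit, was 4 with the minimum of 5 TPM (1.71% of all genes tested there, against 0.933% in the reported fit), 0 without the trend and 0 whichever single library was left out. Beyond the smaller number of libraries in the last case, the cause was not tested. Leaving out libraries turned the sign of 6 to 13 of 47 differences picked by the naming rule, none of them called, and 29 of 47 turned somewhere. Above 400 TPM the differences of all genes had an SD of 0.137 on the log2 scale, and between 20 and 50 TPM of 0.403. These SDs hold any true differences between the subsets as well as noise, so they do not give the smallest shift that could be seen.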
